A study of Homo sapiens with 12 samples.

Results

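The interleukin-1 family was followed in HaCaT cells, a wild-type line of immortalised human skin keratinocytes, through 10 genes: the cytokines IL1A, IL1B, IL18, IL33 and IL36G, the antagonists IL1RN and IL36RN, and the receptor genes IL1R1, IL1R2 and IL1RAP. They were taken by gene name from a table of 45372 rows, and each name matched 1 row. The filter on low counts kept 12878 rows for testing, among them 8 of the 10 genes; IL33 and IL36G had too few counts. The cells had received repeated doses of 50 J per cm2 of 408 nm blue light at 4.6 mW per cm2, in buffered saline, or served as dark controls, and the sources used here do not state what handling the controls shared. The 6 groups, each with 2 libraries lettered a and b, are called dark_3, blue_3, dark_14, blue_14, dark_42 and blue_42 after the light and the number of irradiations the group had reached or was matched to. Sessions took place 3 times weekly and cells were passaged throughout, so a difference between irradiation numbers cannot be told apart from passage, harvest time or library preparation.

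Interleukin-1 signalling begins when IL-1 alpha or IL-1 beta, the products of IL1A and IL1B, binds the receptor encoded by IL1R1, which then recruits the accessory protein encoded by IL1RAP. The receptor antagonist encoded by IL1RN occupies the same receptor without recruiting the accessory protein, and IL1R2 encodes a decoy receptor with no signalling domain. IL18, IL33 and the IL-36 cytokines use related receptors of their own, and the product of IL36RN blocks the IL-36 receptor. Keratinocytes are known for stored IL-1 alpha, which is released when the cell is damaged, and for an intracellular form of the receptor antagonist, whereas IL-1 beta and IL-18 are made as precursors that caspase-1 cuts.

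By GENCODE release 29 on GRCh38, all 10 are protein-coding genes and 7 of them lie on chromosome 2. IL1A (chr2:112773915-112784590, minus strand) and IL1B (chr2:112829751-112836903, minus strand) are neighbours, 45.2 kb apart, and IL1RN (chr2:113107214-113134016, plus strand) lies further along the same cluster, beyond IL36G and IL36RN. IL1R2 (chr2:101991844-102028544) and IL1R1 (chr2:102064544-102179874), 36.0 kb apart on the plus strand, form a separate pair. IL18 is at chr11:112143251-112164117 on the minus strand, IL33 at chr9:6215786-6257983 and IL1RAP at chr3:190514051-190659750 on the plus strand. The sequences just upstream of an annotated exon of IL1A, IL1B and IL1RN are shown. These are the genes of the cluster from IL1A to IL1RN that differed between dark_3 and dark_42 at an adjusted p under 0.05 in edgeR. IL1A and IL1B were higher in dark_42 and IL1RN was lower. The IL1RN sequence belongs to the first of its 3 RefSeq windows and lies inside the span of the gene given above. The sequences come from the RefSeq promoter table on GRCh38.p14 and are written 5′ to 3′ on the gene's strand. Capitals mark a match to the letters TATAAA in IL1A, 239 to 234 bases before the RefSeq start of its first window. In IL1RN they mark a match to the AP-1 motif TGANTCA, 223 to 217 bases before that window's start. IL1B held no match to either.
IL1A, chr2:112784591-112784743, minus strand: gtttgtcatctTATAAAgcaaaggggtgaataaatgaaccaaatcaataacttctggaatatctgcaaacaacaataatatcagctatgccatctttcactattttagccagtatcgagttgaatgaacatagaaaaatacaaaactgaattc
IL1B, chr2:112836904-112837029, minus strand: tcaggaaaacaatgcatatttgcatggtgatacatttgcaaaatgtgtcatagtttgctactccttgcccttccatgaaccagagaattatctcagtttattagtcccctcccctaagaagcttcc
IL1RN, chr2:113117721-113117892, plus strand: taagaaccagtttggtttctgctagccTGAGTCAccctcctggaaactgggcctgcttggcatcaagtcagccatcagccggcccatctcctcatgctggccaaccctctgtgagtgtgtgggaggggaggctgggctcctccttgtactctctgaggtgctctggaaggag
In windows of 250 bases before each RefSeq start, searched on both strands, TGANTCA occurred in 6.57% of 35116 windows and in 3 of the 18 windows that belong to 9 of the 10 genes. TATAAA occurred in 10.7% of all windows and in 4 of the 18, and the NF-kappaB consensus in 9.96% and in 1 of the 18, a window of IL1R2. The first IL1A window also held TGACTCA 12 to 6 bases before its RefSeq start, inside an annotated exon and so outside the sequence shown. The second IL1A window overlaps the first and holds the same TGACTCA, 105 to 99 bases before its own start. That site is therefore counted in both IL1A windows. The second window also held TGAGTCA 55 to 49 bases before its start, in an annotated exon. The GC content was 37.6% and 42.0% in the first and second IL1A windows and 40.0% in the IL1B window, against a median of 58.0% over all windows. The IL1RAP window had 74.8% and 33 CpG sites against a median of 11. These matches describe letters in a window; no binding was measured.

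Levels are given as CPM, counts scaled by TMM normalisation to a common library size. The kit reads each transcript from a tag close to its 3′ end, so levels of different genes can be set side by side without scaling by length. Totals ran from 2073160 counts in blue_14 b to 8183941 in blue_42 b, and the 14-irradiation groups held the 3 smallest libraries. A total of 3 counts, the limit that a count of 0 allows, corresponded to 0.364 to 1.43 CPM, which covers counting error only. Mitochondrial transcripts took 12.4% and 12.6% of the dark_42 libraries and 13.7% to 16.1% of the others. All 12 keratinocyte markers, such as KRT5 and TP63, were present, with summed levels of 4850 to 5290 CPM in dark_42 and 5970 to 7560 CPM in the other groups. The 13 leukocyte and macrophage markers summed to 1.58 to 7.16 CPM, mostly CD14 and CD68; CD207 was at 0 in every library and PTPRC had 12 counts in all.

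The receptor antagonist was the most abundant transcript of the family. IL1RN (ENSG00000136689) averaged 220 CPM over the 12 libraries, above 94.3% of tested genes, followed by IL18 (ENSG00000150782) at 81.4 CPM and IL1B (ENSG00000125538) at 39.5 CPM. That order held in 12 of 12 libraries. IL1RAP (ENSG00000196083), the accessory receptor, averaged 27.9 CPM and lay below IL1B in 10 of 12 libraries, the exceptions being blue_3 a and b, so these neighbours were not separated everywhere. IL1R1 (ENSG00000115594) averaged 10.9 CPM and IL1A (ENSG00000115008) 9.19 CPM. IL1A exceeded IL1R1 in 5 of 12 libraries, namely all 4 of the 42-irradiation libraries and blue_14 a. The decoy receptor IL1R2 (ENSG00000115590) and the IL-36 antagonist IL36RN (ENSG00000136695) were close to the limit of detection, at 1.17 and 1.15 CPM, with 91 and 84 counts in all.

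IL36G (ENSG00000136688), an agonist of the IL-36 receptor, had 4 counts in all 12 libraries together, 1 in blue_3 a, 2 in dark_14 b and 1 in blue_42 a. IL33 (ENSG00000137033), a nuclear alarmin, had 7, of which 4 were in blue_42 a and 1 each in blue_42 b, blue_3 a and dark_14 b. Any difference in these genes was not detectable at this depth. Across libraries IL1A varied most among the 6 genes above 5 CPM on average, with a highest over lowest level of 5.66, against 2.92 for IL1B, 1.87 for IL1R1, 1.73 for IL18, 1.60 for IL1RN and 1.53 for IL1RAP.

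**Figure D1:**
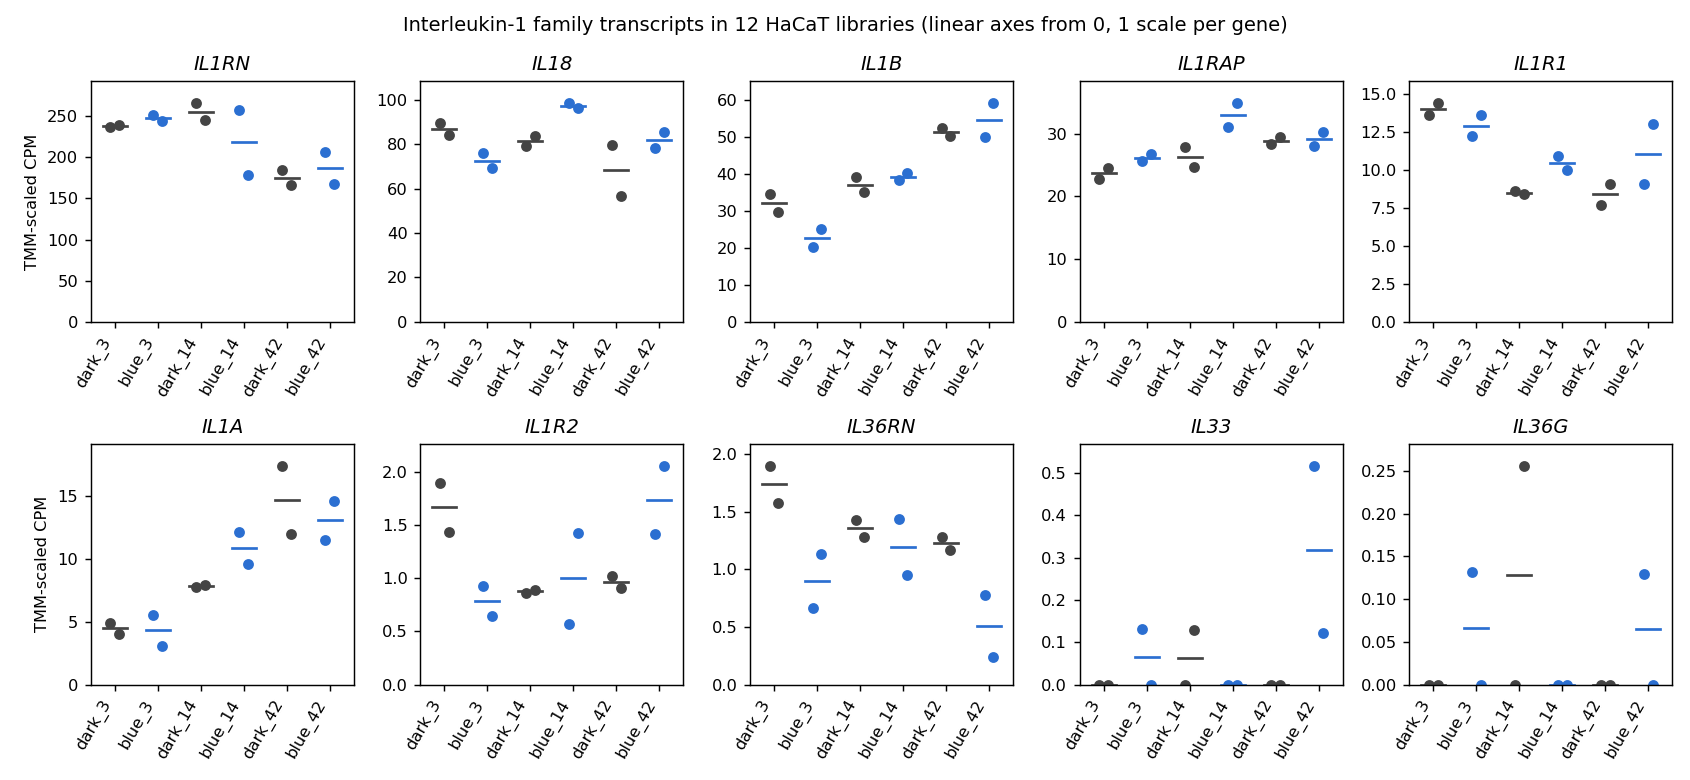
TMM-scaled CPM (vertical axis, linear, from 0, a separate scale per gene) of the 10 genes in the 6 groups; each point is a library, each line the mean of 2, grey for dark and blue for irradiated cultures. IL1A and IL1B climb from 3 to 42 irradiations with and without light, whereas IL33 and IL36G have a count in only a few libraries.

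Blue light against dark at the same irradiation number left the agonist genes without a called difference. IL1A, the stored agonist, was at 4.91 and 4.03 CPM in dark_3, compared with 5.56 and 3.08 CPM in blue_3. At 14 irradiations it was at 7.73 and 7.92 CPM in the dark and 12.1 and 9.55 CPM under light, and at 42 at 17.4 and 12 CPM in the dark and 11.5 and 14.6 CPM under light. The groups overlapped at 3 and at 42 irradiations, and at 14 both irradiated libraries lay above both dark ones. The log2 differences, blue minus dark, were -0.02 ± 0.32 (SE), 0.49 ± 0.30 and -0.17 ± 0.22, with adjusted p = 0.996, 0.872 and 0.813 in edgeR's quasi-likelihood test.

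IL1B, the inducible agonist, gave the lowest p of the family at 3 irradiations, where the dark_3 libraries held 34.6 and 29.8 CPM and the blue_3 libraries held 20.3 and 25.1 CPM. Both irradiated libraries were below both dark ones, a log2 difference of -0.51 ± 0.15 (95% interval -0.82 to -0.20). The unadjusted p was 0.00238, but the adjusted p over 12878 genes was 0.408 in edgeR, so the difference was not called. At 14 irradiations IL1B was at 39.0 and 35.1 CPM in the dark and 38.2 and 40.1 CPM under light, and at 42 at 52.3 and 50.1 CPM against 50.0 and 59.1 CPM. Both of these differences were 0.09 on the log2 scale, with intervals of -0.24 to 0.41 and -0.17 to 0.36, and the groups overlapped.

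IL18, whose precursor keratinocytes hold constitutively, was at 89.7 and 84.3 CPM in dark_3, compared with 75.8 and 69.3 CPM in blue_3. At 14 irradiations it was at 79.3 and 83.6 CPM in the dark and 98.5 and 96.0 CPM under light, and at 42 at 79.8 and 56.8 CPM against 78.4 and 85.6 CPM. The log2 differences were -0.26 ± 0.13, 0.25 ± 0.14 and 0.26 ± 0.13, with adjusted p = 0.733, 0.849 and 0.403 in edgeR. The dark_42 libraries stood apart from each other. The difference at 42 irradiations was 0.53 without library a of dark_42 and 0.04 without library b.

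The antagonist IL1RN was at 237 and 239 CPM in dark_3, compared with 251 and 244 CPM in blue_3. At 14 irradiations it was at 266 and 245 CPM in the dark and 257 and 179 CPM under light, and at 42 at 184 and 166 CPM against 206 and 167 CPM. Its groups overlapped at 14 and 42 irradiations, and the log2 differences of 0.06 ± 0.14, -0.22 ± 0.14 and 0.09 ± 0.14 were not called. The 95% intervals were -0.23 to 0.34, -0.51 to 0.08 and -0.20 to 0.38. They rest on the spread between libraries, which could be purely technical, so they do not bound an effect of light across cultures. IL36RN, at 0.243 to 1.90 CPM, was below both dark libraries in both irradiated libraries at 3 and at 42 irradiations, with 23 against 12 counts and 19 against 8 counts. Its log2 differences were -0.97 ± 0.55, -0.09 ± 0.69 and -1.26 ± 0.61, none of them called.

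Of the receptor genes, IL1RAP was at 27.8 and 24.7 CPM in dark_14 and 31.0 and 34.9 CPM in blue_14. This log2 difference of 0.33 ± 0.15 had an unadjusted p of 0.0411 and an adjusted p of 0.834 in edgeR, and the differences at 3 and 42 irradiations were 0.14 ± 0.14 and 0.01 ± 0.13. IL1R1, the signalling receptor, was at 13.6 and 14.4 CPM in dark_3 against 12.2 and 13.6 CPM in blue_3, and at 8.59 and 8.43 CPM in dark_14 against 10.9 and 10.0 CPM in blue_14. At 42 irradiations it was at 7.68 and 9.10 CPM in the dark and 9.04 and 13 CPM under light, a log2 difference of 0.40 ± 0.21 (adjusted p = 0.424 in edgeR) with overlapping libraries. The decoy IL1R2 lay below both dark libraries at 3 irradiations (11 against 22 counts) and above both at 42 (28 against 15 counts), with log2 differences of -1.04 ± 0.55 and 0.84 ± 0.49 and adjusted p = 0.733 and 0.494 in edgeR.

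**Figure D2:**
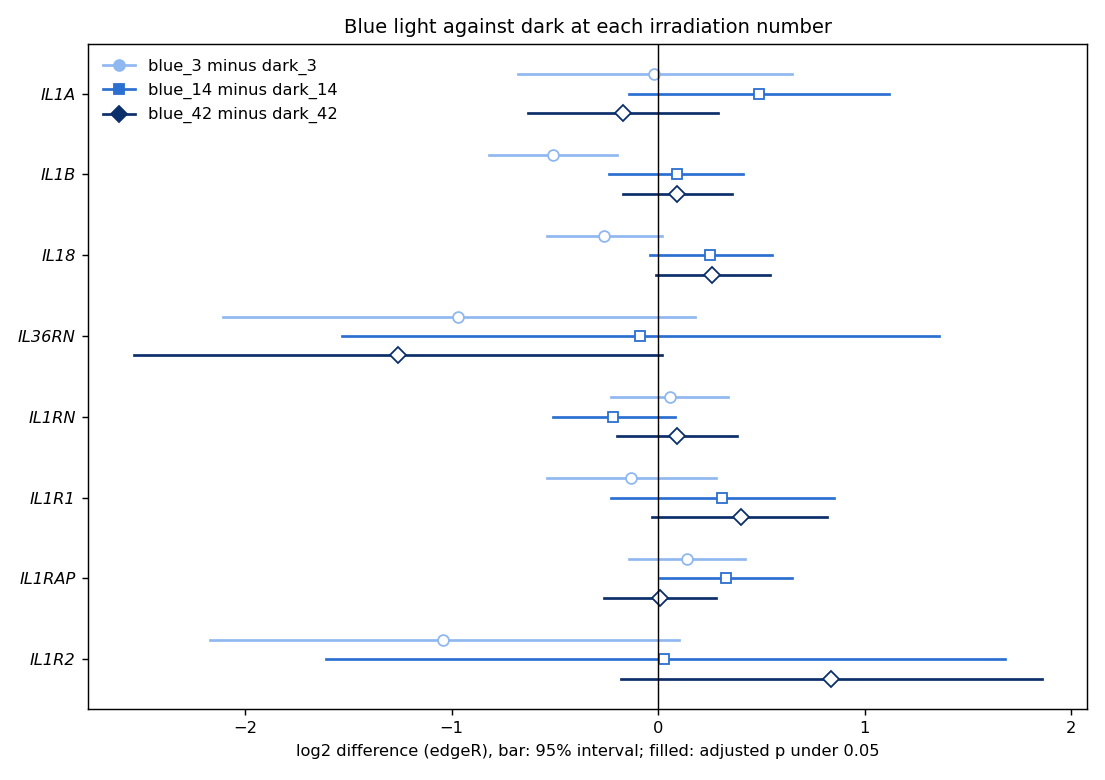
Log2 difference, blue minus dark, of the 8 tested genes at 3, 14 and 42 irradiations (horizontal axis), with 95% intervals as bars; filled symbols would mark an adjusted p under 0.05. No symbol is filled, the widest bars belong to IL36RN and IL1R2, and the IL1B bar at 3 irradiations lies wholly below 0.

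In all, 0 of 8 genes were called for light at 3, 14 or 42 irradiations, in edgeR and in DESeq2. At an unadjusted p under 0.05 there was 1 gene at 3 irradiations (IL1B), 1 at 14 (IL1RAP) and 0 at 42. Of all 12878 genes, 891, 758 and 1713 were under that limit in edgeR. Among all 12878 genes the called share was 0.0155% at 3, 0% at 14 and 1.23% at 42 irradiations, so few genes of any kind were called. Libraries of the 2 groups did not overlap for 7 of 8 genes at 3 irradiations, 4 at 14 and 2 at 42, against 43.6%, 33.2% and 42.2% of all genes. The median log2 difference of the 8 was -0.20, 0.17 and 0.09, and that of all genes 0.01, -0.01 and 0.00. The average of the 3 light effects called 0 of the 8 in edgeR and in DESeq2, against 0.0699% of all genes in edgeR. At an unadjusted p under 0.05 there were 1 of the 8 and 1067 of the 12878.

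The light effects themselves were also compared between irradiation numbers, and 0 of 8 genes were called in each of the 3 differences by edgeR and by DESeq2. From 3 to 42 irradiations the called share of all genes was 0.435%, from 14 to 42 it was 0.0544% and from 3 to 14 it was 0.0388%. At an unadjusted p under 0.05 there were 3 genes between 3 and 42 (IL1B, IL18 and IL1R2), 0 between 14 and 42 and 2 between 3 and 14 (IL1B and IL18). Of all 12878 genes, 1450, 1036 and 1030 were under that limit in the same order. The light effect on IL1B was higher by 0.60 ± 0.20 on the log2 scale at 42 than at 3 irradiations (adjusted p = 0.217 in edgeR). For IL18 that difference was 0.52 ± 0.19 (adjusted p = 0.283 in edgeR). It was 0.79 without library a of dark_42 and 0.30 without library b.

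Along the series, the agonists rose in the dark cultures and the antagonist and the signalling receptor fell. Between dark_3 and dark_42, 4 of 8 genes were called, 2 higher and 2 lower, against 17.7% of all genes (9.47% higher, 8.26% lower). IL1A rose 3.29-fold, a log2 difference of 1.72 ± 0.27 (adjusted p = 0.000176 in edgeR), from 4.47 ± 0.624 CPM (SD, n = 2 libraries) to 14.7 ± 3.86 CPM. IL1B rose 1.59-fold, by 0.67 ± 0.14 (adjusted p = 0.00197 in edgeR), from 32.2 ± 3.36 to 51.2 ± 1.54 CPM. IL1RN fell 1.36-fold, a log2 difference of -0.44 ± 0.14 (adjusted p = 0.031 in edgeR), from 238 ± 1.47 to 175 ± 12.6 CPM. IL1R1 fell 1.67-fold, a log2 difference of -0.74 ± 0.20 (adjusted p = 0.0163 in edgeR), from 14.0 ± 0.543 to 8.39 ± 1.00 CPM. For each of these 4 genes the dark_3 and dark_42 libraries did not overlap.

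Of the other genes, IL18 differed by -0.35 ± 0.13 (adjusted p = 0.0759 in edgeR) and IL1RAP by 0.28 ± 0.13 (adjusted p = 0.15 in edgeR), neither called. The IL18 difference was -0.62 without dark_42 a and -0.13 without dark_42 b. Of the 8 alternative fits other than those that left out a single library, 1 called IL18. IL1R2 and IL36RN differed by -0.77 ± 0.51 and -0.50 ± 0.50. The median of the 8 tested genes was -0.40 against 0.02 for all genes. Leaving out any 1 of the 12 libraries kept the IL1A call, with values of 1.42 to 1.96. The IL1B call was lost without dark_3 b (0.56, adjusted p = 0.0628 in edgeR), the IL1RN call without dark_3 a, dark_3 b or dark_42 b, and the IL1R1 call without dark_3 a, dark_3 b or dark_42 a and in DESeq2 (adjusted p = 0.0613).

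The irradiated cultures gave the same direction for the agonists in separate libraries. Between blue_3 and blue_42, 2 of 8 genes were called, both higher, against 7.78% of all genes. IL1A rose 2.95-fold, by 1.56 ± 0.27 on the log2 scale (adjusted p = 0.00087 in edgeR), from 4.32 ± 1.76 to 13 ± 2.18 CPM. IL1B rose 2.42-fold, by 1.27 ± 0.14 (adjusted p = 9.33e-06 in edgeR), from 22.7 ± 3.41 to 54.5 ± 6.47 CPM. Leaving out any 1 of the 12 libraries kept both calls, with ranges of 1.23 to 2.06 and 1.1 to 1.43.

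IL1RN differed by -0.41 ± 0.14 between blue_3 and blue_42 (adjusted p = 0.0737 in edgeR), from 248 ± 5.17 to 186 ± 27.2 CPM, and was not called, although both later libraries lay below both earlier ones. With the replicate letter as a block the adjusted p was 0.047, it was 0.0235 without the 14-irradiation libraries, 0.016 without a count filter and 0.0169 in a fit of the 4 libraries alone, all in edgeR. The other 4 alternative fits of all libraries did not call it, nor did 10 of the 12 that left out a library, and without blue_42 b it was -0.27 with an adjusted p of 0.552 in edgeR. IL1R1 differed by -0.22 ± 0.20 (adjusted p = 0.574 in edgeR), with overlapping libraries. IL18 differed by 0.18 ± 0.13, IL1RAP by 0.15 ± 0.13, IL36RN by -0.78 ± 0.67 and IL1R2 by 1.11 ± 0.52, none called. Whether the rise of a gene differed between dark and irradiated cultures is the same contrast as the light effect at 42 minus that at 3, and none of the 8 was called in it.

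**Figure D3:**
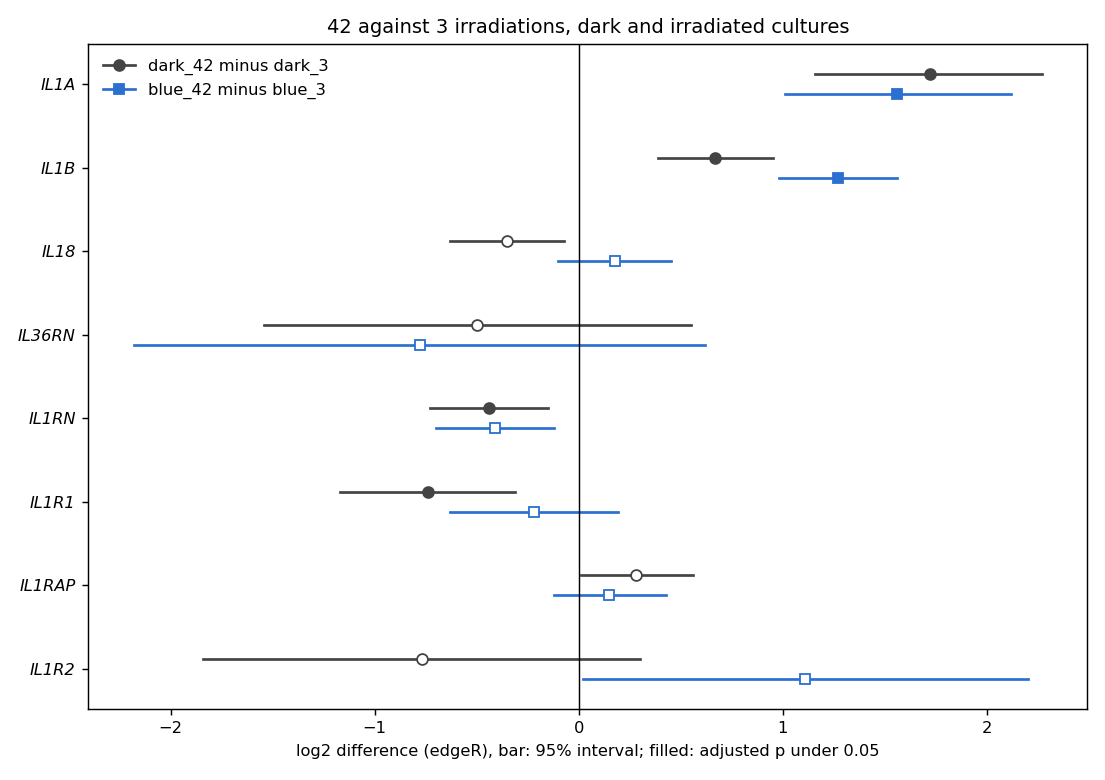
Log2 difference, 42 minus 3 irradiations, of the 8 tested genes in dark (grey circles) and irradiated (blue squares) cultures, with 95% intervals; filled symbols have an adjusted p under 0.05. IL1A and IL1B are filled in both series, at 1.72 and 1.56 and at 0.67 and 1.27, whereas IL1RN and IL1R1 are filled below 0 only for the dark cultures; the test of the difference between the series called neither.

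The 14-irradiation groups lay between the others for IL1A. Between dark_3 and dark_14, 1 of 8 genes was called, against 12.7% of all genes: IL1R1 fell, with a log2 difference of -0.72 ± 0.22 (adjusted p = 0.0329 in edgeR), a call lost without either dark_3 or either dark_14 library and in DESeq2 (adjusted p = 0.103). IL1A differed by 0.81 ± 0.30 (adjusted p = 0.0803 in edgeR), and was called at an adjusted p of 0.0344 when only the dark_3 and dark_14 libraries were fitted, IL1B by 0.19 ± 0.14 and IL1RN by 0.10 ± 0.14. This comparison shares its dark_3 libraries with that of dark_3 and dark_42.

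Between dark_14 and dark_42, 3 of 8 genes were called, 2 higher and 1 lower, against 7.04% of all genes (1.81% higher, 5.23% lower). IL1A differed by 0.90 ± 0.25 (adjusted p = 0.0337), IL1B by 0.48 ± 0.14 (adjusted p = 0.0395) and IL1RN by -0.54 ± 0.14 (adjusted p = 0.0215), all in edgeR. IL1R1 was level at -0.02 ± 0.23. In DESeq2, and with only these 4 libraries, IL1RN alone was called. The IL1A call was lost without dark_14 a, dark_14 b or dark_42 a, the IL1B call without any 1 of the 6 dark libraries, and the IL1RN call without dark_14 a, dark_14 b or dark_42 b.

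Between blue_3 and blue_14, 2 of 8 genes were called, both higher, against 6.22% of all genes: IL1A by 1.32 ± 0.32 (adjusted p = 0.0188) and IL1B by 0.79 ± 0.16 (adjusted p = 0.00772), in edgeR. IL18 differed by 0.42 ± 0.14 (adjusted p = 0.0779 in edgeR), and was called without dark_42 a or dark_42 b, with an adjusted p down to 0.0304. The IL1A call was lost without blue_3 b, blue_14 a or blue_14 b, and the IL1B call without blue_3 a or blue_14 b. Between blue_14 and blue_42, 0 of 8 genes were called in edgeR and in DESeq2, against 0.241% of all genes in edgeR. At an unadjusted p under 0.05 there were 1 of the 8, IL1B, and 1609 of all 12878 genes. IL1B differed by 0.48 ± 0.15 (adjusted p = 0.172 in edgeR).

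The balance of antagonist and agonist transcripts was described by a ratio within each library. The ratio of IL1RN counts to the summed counts of IL1A and IL1B was 6.0 and 7.06 in dark_3 and 9.73 and 8.66 in blue_3. It was 5.70 and 5.68 in dark_14 and 5.10 and 3.61 in blue_14, and in dark_42 it was 2.64 and 2.68, compared with 3.35 and 2.27 in blue_42. The 4 libraries at 42 irradiations were all below the 8 others, and the 2 blue_3 libraries were the highest. Group means were 6.53 ± 0.749 in dark_3, 9.19 ± 0.755 in blue_3, 5.69 ± 0.0119 in dark_14, 4.35 ± 1.06 in blue_14, 2.66 ± 0.0267 in dark_42 and 2.81 ± 0.761 in blue_42 (SD, n = 2). The ratio is a description without a test, and it concerns transcripts, not secreted protein.

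**Figure D4:**
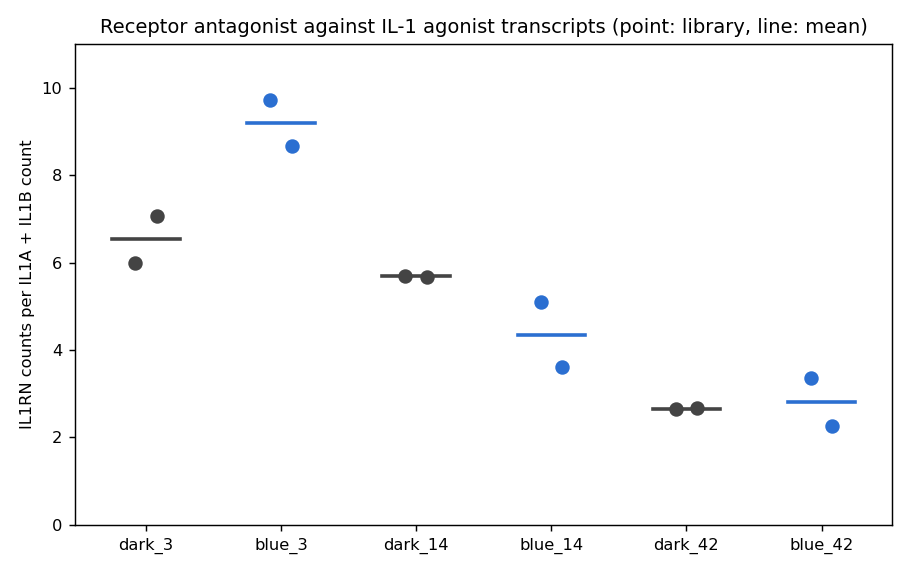
IL1RN counts per count of IL1A and IL1B together (vertical axis, linear, from 0) in the 6 groups; each point is a library and each line the mean of 2. The ratio is between 6.0 and 9.73 at 3 irradiations and between 2.27 and 3.35 at 42.

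Genes induced by IL-1 in keratinocytes were described from a list of 25, of which 16 were tested. Between dark_3 and dark_42, 10 of the 16 rose and 0 fell, where 9.47% of all genes were called higher, with a median log2 difference of 1.54 against 0.02 for all genes, and 15 of the 16 were above 0. NFKBIZ, a nuclear regulator of NF-kappaB target genes, rose from 18.6 ± 1.69 to 56.4 ± 7.0 CPM (SD, n = 2), by 1.60 ± 0.18 on the log2 scale (adjusted p = 6.09e-06 in edgeR). LCN2, an iron-sequestering antimicrobial protein, was at 43.8 and 46.7 CPM in dark_3, compared with 479 and 945 CPM in dark_42, a log2 difference of 3.98 ± 0.47 (adjusted p = 0.00208 in edgeR). The ubiquitin ligase gene BIRC3 rose by 2.29 ± 0.27, the RNase gene ZC3H12A by 1.22 ± 0.21, and the NF-kappaB inhibitors NFKBIA and TNFAIP3 by 0.75 ± 0.16 and 0.87 ± 0.22. The neutrophil-attracting chemokines CXCL8, CXCL3 and CXCL1 rose by 1.47 ± 0.35, 2.35 ± 0.58 and 0.56 ± 0.16, the first 2 from levels under 5 CPM, and the calprotectin subunit S100A9 rose by 3.45 ± 0.70.

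Between blue_3 and blue_42, 12 of the 16 rose and 0 fell, where 7.78% of all genes were called in either direction, with a median of 1.34 against 0.00 for all genes. Besides the 10 named, ICAM1, an adhesion molecule, rose by 1.30 ± 0.40 and S100A8, the other calprotectin subunit, by 3.82 ± 0.68 (adjusted p = 0.0478 and 0.0239 in edgeR). The ICAM1 call held in 8 of 19 alternative fits, and the S100A8 call was lost without either dark_3 library, either blue_3 library or blue_42 b. Examples among the 10 are CXCL1 at 0.96 ± 0.15, ZC3H12A at 1.37 ± 0.20, LCN2 at 2.69 ± 0.43 and NFKBIZ at 0.78 ± 0.17. Between dark_3 and dark_14 there were 11 higher and 0 lower (median 1.14; 12.7% of all genes called), and between blue_3 and blue_14 there were 8 higher and 0 lower (median 1.01; 6.22% of all genes called). Between dark_14 and dark_42 only NFKBIZ was called (0.58 ± 0.17), a call that held in 11 of 19 alternative fits and was lost in DESeq2 and without dark_3 a, dark_3 b, dark_14 a, dark_14 b or dark_42 b. The share of all genes called between dark_14 and dark_42 was 7.04%. Between blue_14 and blue_42 there was no call in edgeR or DESeq2, against 0.241% of all genes in edgeR. The counts rest on few libraries: for dark_42 against dark_3 it was 5 without dark_3 b, 6 without dark_3 a and 6 without dark_42 b, and for blue_42 against blue_3 it was 3 without blue_3 a, 4 without blue_3 b and 3 without blue_42 b. For dark_14 against dark_3 it was 4 without dark_3 a, 5 without dark_3 b and 5 without dark_14 a. For blue_14 against blue_3 it was 1 without blue_3 b or blue_14 b, 4 without blue_3 a, and 5 without dark_3 a, without dark_3 b or with the replicate block. The genes of this list respond to other stimuli too, and none of the libraries was treated with IL-1 or a blocker, so a part of IL-1 itself was not tested.

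For light, 0 of the 16 IL-1-induced genes were called at 3, 14 or 42 irradiations in edgeR and in DESeq2. The called shares of all genes were 0.0155%, 0% and 1.23% in edgeR, so few genes of any kind were called. At an unadjusted p under 0.05 there were 3, 1 and 5 of the 16, and 891, 758 and 1713 of all 12878 genes. The medians of the 16 were 0.33, 0.14 and 0.13, against 0.01, -0.01 and 0.00 for all genes. The largest differences above 10 CPM at 3 irradiations were in LCN2 (1.30 ± 0.45), PTGS2 (0.93 ± 0.24), which encodes a prostaglandin synthase, and BIRC3 (0.53 ± 0.27). At 42 irradiations they were in S100A8 (1.49 ± 0.56), S100A9 (1.06 ± 0.59) and S100A7 (0.80 ± 0.76), and at 14 in S100A9 (0.74 ± 0.61), S100A8 (0.68 ± 0.59) and NFKBIZ (0.53 ± 0.18).

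The list of inflammasome and processing genes concerns the cutting and release of the IL-1 precursors, and it also holds a protease inhibitor, SERPINB1. Of its 20 genes, 16 were tested. Between dark_3 and dark_42, 4 rose and 0 fell (median 0.25; 9.47% of all genes called higher): CASP1, the protease that matures IL-1 beta and IL-18, by 0.59 ± 0.18, CASP4 by 0.82 ± 0.12, CTSS, a lysosomal protease, by 2.72 ± 0.47, and the protease inhibitor SERPINB1 by 1.03 ± 0.25. CASP1 was at 15.4 and 17.7 CPM in dark_3, compared with 23.2 and 26.7 CPM in dark_42. Between blue_3 and blue_42, 3 rose and 0 fell (median 0.19; 7.78% of all genes called): CASP1 by 0.81 ± 0.17, CASP4 by 0.50 ± 0.12 and SERPINB1 by 1.38 ± 0.25. The CASP4 rise in the dark held in all 20 alternative fits, while the count fell to 1 without dark_3 a or dark_3 b and to 2 without dark_42 b. In the irradiated cultures it fell to 0 without blue_3 b and to 1 without blue_3 a or blue_42 b.

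Between dark_3 and dark_14, 5 of these 16 rose (CASP1, CASP4, CTSS, the sensor NLRP1 and the adaptor PYCARD), against 12.7% of all genes called. The count was 0 when either dark_3 library was left out, 2 without dark_14 a and 3 without dark_14 b. Between blue_3 and blue_14, CASP1 (1.17 ± 0.19) and NLRP1 (1.65 ± 0.37) rose, against 6.22% of all genes called. The NLRP1 call was lost without blue_3 b or blue_14 b, and the count was 4 in DESeq2, without a count filter, with non-robust estimation and with only the libraries compared. PYCARD fell between dark_14 and dark_42 (-0.66 ± 0.11, adjusted p = 0.000878 in edgeR), and GSDMD, the pore-forming effector, rose (0.70 ± 0.20, adjusted p = 0.037 in edgeR), a call lost in DESeq2 and without dark_3 a, dark_3 b, dark_14 b or dark_42 b. The share of all genes called between dark_14 and dark_42 was 7.04%. For light, 0 of 16 were called at each irradiation number in edgeR and in DESeq2, against 0.0155%, 0% and 1.23% of all genes in edgeR. The medians of the 16 were 0.04, 0.02 and -0.02. At an unadjusted p under 0.05 there were 0, 2 and 2 of the 16, and 891, 758 and 1713 of all 12878 genes.

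The signalling genes downstream of the receptors, from the adaptor MYD88 to the kinase MAP3K7, were also listed. Of 18 tested from 20 listed, 1 was called between dark_3 and dark_42, against 17.7% of all genes, with a median of 0.22. Between blue_3 and blue_42, 0 were called in edgeR and in DESeq2, against 7.78% in edgeR, with a median of 0.06. At an unadjusted p under 0.05 there were 1 of the 18 and 2835 of all 12878 genes between blue_3 and blue_42. The called gene, the kinase-like IRAK2, had 0.159 and 0 CPM in dark_3, compared with 0.384 and 1.82 CPM in dark_42, levels near a few counts. For dark_42 against dark_3, no gene of the list was called in DESeq2, with only the libraries compared or without the 14-irradiation libraries. The count was 0 with the replicate block and without dark_3 a, dark_3 b, dark_42 b, blue_42 a or blue_42 b, and 5 without dark_42 a. IRAK1 fell between dark_3 and dark_14 (-0.35 ± 0.11, adjusted p = 0.0456 in edgeR), a call lost with the replicate block and without either library of dark_3 or dark_14 or blue_3 b. The share of all genes called between dark_3 and dark_14 was 12.7%. For light, 0 of 18 were called at each irradiation number in edgeR and in DESeq2, against 0.0155%, 0% and 1.23% of all genes in edgeR. At an unadjusted p under 0.05 there were 1, 3 and 2 of the 18, and 891, 758 and 1713 of all 12878 genes.

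Of the other ligands, receptors and binding proteins of the family, 6 of 12 were tested. IL18R1, the ligand-binding receptor for IL-18, was at 0.634 and 0.864 CPM in dark_3, compared with 3.59 and 2.34 CPM in dark_42, a rise of 1.95 ± 0.48 (adjusted p = 0.00753 in edgeR). In the irradiated cultures it went from 0.530 and 0.486 CPM to 2.45 and 3.40 CPM, a rise of 2.48 ± 0.51 (adjusted p = 0.00444 in edgeR). The dark call was lost without dark_3 a, dark_3 b or dark_42 a, and the other without blue_3 a or blue_42 b. SIGIRR, an inhibitory receptor of the family, rose by 0.54 ± 0.14 in the dark (27.9 ± 0.882 to 40.7 ± 2.45 CPM), a call lost without dark_3 a, dark_3 b or dark_42 b. IL1RAPL2 fell in the dark (-1.77 ± 0.61, adjusted p = 0.0493 in edgeR) from 1.59 to 0.45 CPM, and that call held in 3 of 19 alternative fits. For light, 0 of 6 were called at 3, 14 or 42 irradiations in edgeR and in DESeq2, against 0.0155%, 0% and 1.23% of all genes in edgeR. At an unadjusted p under 0.05 there were 0, 0 and 1 of the 6, and 891, 758 and 1713 of all 12878 genes.

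**Figure D5:**
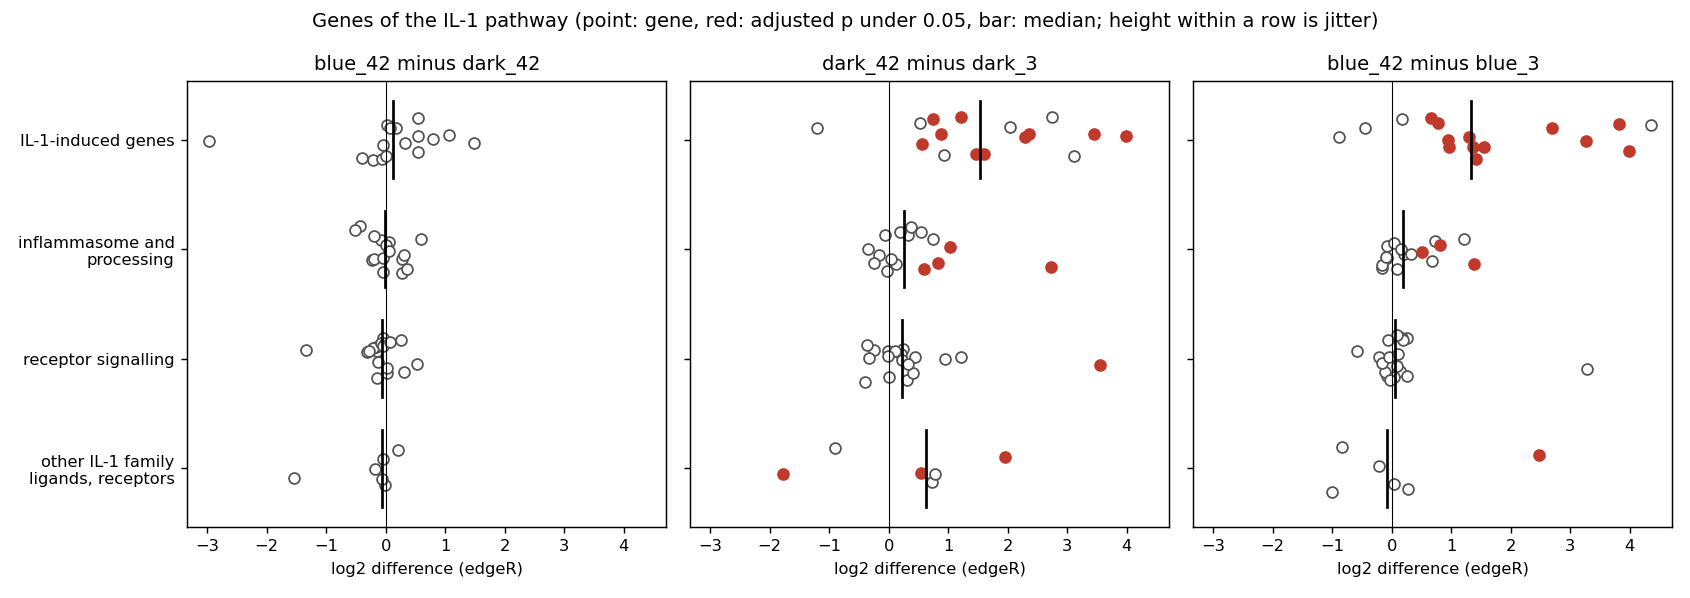
Log2 difference (horizontal axis) of the tested genes of the 4 pathway lists for blue_42 minus dark_42, dark_42 minus dark_3 and blue_42 minus blue_3; each point is a gene, red for an adjusted p under 0.05, bars are medians and the height within a row has no meaning. No point is red for light at 42 irradiations, while 10 and 12 IL-1-induced genes are red in the dark and irradiated series.

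Other measures also moved along the series. The dark_42 libraries had the lowest mitochondrial share and the lowest keratinocyte marker sum, given above, and the part of either in the dark_42 results was not tested. The leukocyte and macrophage sum was 1.58 to 1.90 CPM in dark_3, 3.89 to 4.64 in blue_3 and 3.87 to 7.16 in the later groups, and its part in the rise of the IL-1-induced genes was not tested. The fibroblast sum was 4.28 to 5.04 CPM in dark_3, 14.6 to 15.2 in dark_14 and 6.11 to 7.17 in dark_42. The summed neuronal markers, all 10 of them present, were at 185 to 187 CPM in dark_3 and 82.5 to 122 CPM in dark_42, and at 218 to 250 CPM in blue_3 and 97.1 to 120 CPM in blue_42, and their part in these results was not tested. Melanocyte markers summed to 10.6 to 16.4 CPM with MLANA and TYR at 0, and endothelial markers to 0.634 to 5.73 CPM with TEK at 0. In bulk RNA, a change in the number of expressing cells and a change in transcripts per cell cannot be told apart.

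The genes with the nearest pattern over the 12 libraries were sought for the 5 members above 10 CPM on average, among 8688 other genes, as the root mean square distance between log2 levels centred on each gene's mean. For IL1B these were CTSC (0.169), TMEM154 (0.183) and OGFRL1 (0.193), against a median distance of 0.473. For IL1RN they were ALKBH5 (0.0859), PDLIM7 (0.0906) and OVOL1 (0.0968), against 0.304. IL18 was nearest to ZNF664 (0.0991), KLF13 (0.0996) and DUSP6 (0.0999), and IL1R1 to NRF1 (0.142), SLC2A4RG (0.149) and FBN2 (0.152). IL1RAP was nearest to STAU2 (0.0565), IRAK4 (0.0694), a kinase on the list of signalling genes, and TMEM184B (0.0727), against a median distance of 0.252. IL1RAP varied little, so short distances were common for it. The 2 libraries of a group share a condition, so the 12 points are not independent, and these distances are descriptions without a test.

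Some of these counts may include neighbouring transcripts. IL18 overlaps a gene on the other strand, AP002884.3, which is not a row of the table. IL1R1 overlaps the antisense gene IL1R1-AS1, which had 0 counts, and IL1RAP overlaps the pseudogene GCNT1P3, which had 96 counts against 2059 for IL1RAP. The sources used here do not say whether the counting used strand, so reads from overlapping genes cannot be told apart.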

How the data were processed

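Libraries were made from total RNA of HaCaT cells with the QuantSeq 3′ FWD kit, per the labels' protocols. The deposited table holds raw counts per gene and library, made with STAR and featureCounts on GRCh38, per the submitters' processing notes. Versions, annotation release, strand setting and use of molecular identifiers: not given in the sources used here. All 12 columns matched a sample title. Groups came from those titles, and no label ties letters a and b to separate cultures, so a p-value here weighs a difference against library spread that could be purely technical. The libraries of a group differed by more than sampling noise (chi-square per degree of freedom 1.61 to 7.98).

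The 10 members and the 4 pathway lists were chosen with earlier results of these data known, so none is independent support. edgeR 4.0.16 (R 4.3.3) was run on the counts of genes that passed filterByExpr (minimum count 10), with TMM scaling and a robust quasi-likelihood fit of 6 group means over all 12 libraries, leaving 6 residual degrees of freedom. Two-sided p-values received Benjamini-Hochberg adjustment across 12878 genes in each of 13 comparisons; a call is an adjusted p under 0.05. SE derives from the test statistic. The biological coefficient of variation was 9.41%. Named genes were all members, every list gene called in a comparison, and otherwise the 3 largest differences per list above 10 CPM. The script was tested on simulated counts, in which 67, 67 and 66 genes per comparison were changed 1.5-fold, 2-fold and 4-fold. All changed genes were drawn from those above 10 CPM on average. For light at 42 irradiations 56.7% of the 1.5-fold and 97% of the 2-fold genes were called (17 false calls, 12878 genes). The shares were 49.3% and 100% at 3 irradiations (11 false calls), and 46.3% and 88.1% at 14 (6 false calls). In the data, 158, 2 and 0 genes were called for light at 42, 3 and 14 irradiations. No gene below 10 CPM on average was changed, so recovery was not tested for genes such as IL1A, IL1R2 and IL36RN. Recovery with fewer changed genes was not tested either. Alternatives were RLE scaling, DESeq2 1.42.0, no filter, a filter at 5 CPM, a replicate block, non-robust estimation, only the libraries compared, leaving out each library and, added after the data were seen, leaving out the 14-irradiation groups; the same alternatives for the list counts were also added then. The RefSeq tables held no promoter of IL18.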

Additional observations from a re-analysis of the deposited data

How the results depend on the processing

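The 41 log2 differences examined under up to 20 alternatives gave 745 values with the same direction and call, 34 that lost a call, 9 that gained 1 and 13 that changed sign, each of the last in a difference that was never called. RLE scaling, non-robust estimation, the 5 CPM filter and the replicate block moved no count of members called by over 1.5 times. With the replicate block, which the letters do not support as a pairing (correlation of same-letter deviations -0.25 to 0.30 over 15 pairs of groups), IL1RN gained a call in blue_42 minus blue_3 (-0.42), and IL1R1 in dark_42 minus dark_14 went from -0.02 to 0.00, as it did without a filter. Members called in dark_14 minus dark_3 numbered 0 in DESeq2 and 2 with only the libraries compared, against 1, and in dark_42 minus dark_14 they numbered 1 in both, against 3. Leaving out a library gave 0 to 1 members in dark_14 minus dark_3, 1 to 4 in dark_42 minus dark_3, 0 to 3 in dark_42 minus dark_14, 0 to 3 in blue_14 minus blue_3, 2 to 3 in blue_42 minus blue_3, and 0 to 1 in blue_42 minus dark_42 and in the light effect 42 minus 3.

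Leaving out a library gave ranges across 0 for IL1A in blue_3 minus dark_3 (-0.53 to 0.32) and blue_42 minus dark_42 (-0.42 to 0.13), IL1B in blue_42 minus dark_42 (-0.03 to 0.20), IL1RN in blue_14 minus dark_14 (-0.51 to 0.02), blue_42 minus dark_42 (-0.07 to 0.24) and blue_14 minus blue_3 (-0.48 to 0.04), IL1RAP in blue_42 minus dark_42 (-0.04 to 0.06), and IL1R1 in dark_42 minus dark_14 (-0.14 to 0.10) and blue_42 minus blue_3 (-0.51 to 0.00). IL-1-induced genes called for light at 3 irradiations numbered 1 without a filter (PTGS2) and 1 with only the libraries compared (LCN2), against 0. At 42 they numbered 3 without a filter (CXCL1, IL6, ZC3H12A), 1 with non-robust estimation and 1 without the 14-irradiation libraries (S100A8 in both), and 0 to 1 on leaving out a library. Their counts on leaving out a library were 5 to 11 in dark_42 minus dark_3 and 3 to 12 in blue_42 minus blue_3. The cause of these changes was not tested, beyond the smaller number of libraries in a fit. Depth limits IL33, IL36G, IL1R2 and IL36RN most.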
